A study of Rattus norvegicus with 10 samples.

Results

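The TAM receptors are the receptor tyrosine kinases Tyro3, Axl and Mertk, and their ligands are the secreted proteins Gas6 and Pros1. These 5 genes (3 receptors and 2 ligands) were described here in the rat dentate gyrus 3 weeks after a lateral fluid percussion injury (LFPI), a model of traumatic brain injury (TBI). They were chosen because Axl was higher after TBI in bulk RNA and in the microglia of 1 injured rat while Mertk was lower in injured astrocytes, so the values of those contrasts are given as a description with no test. All 5 were measured among the 14166 genes of the bulk table and among the 25399 genes of the nucleus matrices.

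TAM receptors let phagocytes recognise and engulf dying cells and shed membrane, and their signalling dampens innate immune responses. Gas6 and Pros1 act as bridges: one end binds phosphatidylserine exposed on a dying cell, which requires vitamin K-dependent carboxylation of the ligand, and the other end binds the receptor. In the brain, Mertk is known from microglia and astrocytes that clear debris and synapses, Axl is known to be induced in reactive microglia, Tyro3 is mostly known from neurons and myelinating cells, Gas6 binds all 3 receptors and Pros1 binds Tyro3 and Mertk.

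All rats were male Sprague-Dawley rats a few months old, and each library came from the dentate gyrus of 1 rat, on the operated side where there had been surgery. TBI rats received a craniectomy and, days later under isoflurane, a fluid pulse onto the dura, while sham rats had the same surgery without the pulse and the naïve rat had no surgery. Bulk RNA was sequenced from 6 rats, 3 sham and 3 with TBI, and single nuclei (snRNA-seq) from 4 more, 2 with TBI, 1 sham and 1 naïve. The sham and the naïve rat formed the control group of the nuclei, as in the study, so the effect of surgery and the effect of the pulse cannot be told apart there. Bulk libraries held 24730284 to 43912261 estimated counts. By the recorded date of the injury or sham procedure, rats up to June are called spring here (sham 1, sham 2 and TBI 1). Later ones are called autumn (sham 3, TBI 2 and TBI 3).

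Of 55863 nucleus barcodes, 55124 passed the quality filters, 12508 and 14400 from TBI 1 and TBI 2, 16931 from the sham rat and 11285 from the naïve rat. Median unique molecular identifiers (UMIs) per nucleus ran from 1647 in TBI 2 to 2652 in the naïve rat, and 314 barcodes occurred in more than 1 library. The matrices also hold stored entries with the value 0, which made up 1.63% of entries in TBI 1, 27.4% in TBI 2, and 11.1% and 15.5% in the sham and naïve libraries. Clustering gave 24 clusters, which were assigned to 10 cell classes by their markers except for 3 clusters (2801 nuclei) that stayed unnamed. Class names below stand for marker-defined, "like" nuclei. The 5 genes together had 21166 UMIs.

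In bulk RNA, Axl and Pros1 were higher in every TBI library than in every sham library, with about 1.94 and 2.23 times the sham level. Mertk was higher in the autumn TBI libraries only, and Tyro3 and Gas6 overlapped between the groups. The question was which arms of this receptor system differ in RNA level after injury. Fewer cells of a type and less RNA per cell cannot be told apart in bulk RNA.

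Axl, the receptor with the highest affinity for Gas6, had log2 CPM (reads scaled to a common library total by the authors) of 5.49, 5.57 and 5.25 in sham 1, 2 and 3 and of 6.11, 6.59 and 6.57 in TBI 1, 2 and 3. The 3 TBI libraries lay above the 3 sham libraries with no overlap. Its mean was 86.8 ± 15.6 CPM in TBI and 43.5 ± 4.95 CPM in sham (SD, n = 3 each), and the fitted log2 fold change was 0.96 ± 0.16 (SE). Within the spring rats the log2 difference was 0.57, and within the autumn rats it was 1.33. Spring sets TBI 1 alone against sham 1 and 2, and autumn sets TBI 2 and 3 against sham 3 alone. Among all genes, 11.7% had every TBI library above every sham library and 3.05% had every TBI library below, and Axl's fold change ranked above that of 95.2% of genes.

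Pros1, the anticoagulant protein S and a ligand of Tyro3 and Mertk, had log2 CPM of 3.12, 3.34 and 2.57 in sham 1, 2 and 3 and of 3.65, 4.30 and 4.58 in TBI 1, 2 and 3. Its groups did not overlap either, and sham 3 was the lowest library and TBI 3 the highest. Pros1 had a mean of 18.7 ± 5.74 CPM in TBI and 8.22 ± 2.12 CPM in sham, a log2 fold change of 1.16 ± 0.28, which ranked above that of 96.5% of genes. The within-period differences were 0.43 in spring and 1.87 in autumn, so the size of the difference rested largely on the autumn rats. Their only sham library was sham 3.

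Mertk, the receptor most tied to engulfment, had log2 CPM of 5.38, 5.20 and 5.31 in sham and of 5.29, 6.02 and 5.87 in TBI 1, 2 and 3. TBI 1 lay within the sham range while the autumn TBI rats lay above it, and the log2 difference was −0.00 in spring and 0.63 in autumn. The log2 fold change over all 6 libraries was 0.42 ± 0.18.

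Tyro3 had log2 CPM of 7.51, 7.46 and 7.29 in sham and of 7.33, 7.13 and 7.43 in TBI, with a log2 fold change of −0.16 ± 0.11. Gas6, the ligand of all 3 receptors, had log2 CPM of 6.97, 6.93 and 7.35 in sham and of 7.09, 7.25 and 7.34 in TBI, with a log2 fold change of 0.09 ± 0.14. Neither gene separated the groups. Of the 5 genes, 4 had a positive and 1 a negative fold change, with a median log2 fold change of 0.42 against −0.00 over all genes. The bulk difference of Axl played a part in the choice of the genes, so this is a description only. Across the table, edgeR called 0 of 14166 genes at a false discovery rate (FDR) of 0.05 and 1360 genes (9.6%) had an unadjusted p under 0.05, while DESeq2 called 349 of 14154 (2.47%).

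**Figure D1:**
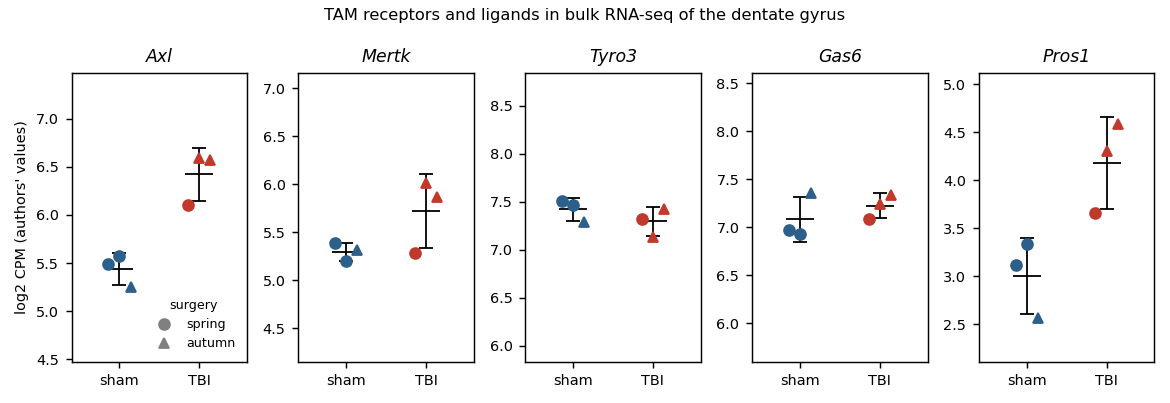
Deposited log2 CPM of the 5 genes in the 6 bulk libraries, with sham in blue and TBI in red, circles for rats operated in spring and triangles for autumn. Black bars give the mean and SD of each group (n = 3). Axl and Pros1 show no overlap between sham and TBI, and in Mertk the spring TBI rat, at 5.29, sits among the sham rats.

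Markers of several cell types were also higher in the TBI libraries than in the sham libraries, while those of neurons and oligodendrocytes mostly had negative fold changes. The summed CPM of 12 measured microglia markers was 620, 1121 and 650 in TBI 1, 2 and 3 against 360, 344 and 362 in sham, and all 12 were higher in TBI. The 9 measured astrocyte markers summed to 7822, 10725 and 8384 CPM in TBI against 5014 to 5697 in sham, with 8 of 9 higher. Fibroblast markers summed to 180, 82.5 and 1009 CPM in TBI 1, 2 and 3 against 37.9, 78.8 and 43.6 in sham, with 6 of 6 higher, and border macrophage or monocyte markers to 17.4, 18.8 and 49.0 against 10.5 to 12.1, with 5 of 5 higher. Pericyte markers summed to 162, 155 and 341 CPM against 120 to 148 in sham and endothelial markers to 285, 272 and 461 against 240 to 259, with 7 of 7 higher in both lists and TBI 3 highest. Of the oligodendrocyte markers 0 of 8 were higher, with a median log2 fold change of −0.72, and higher were 0 of 8 glutamatergic and 2 of 9 GABAergic neuron markers. The sums of these lists overlapped between the groups. Oligodendrocyte markers summed to 5215, 8106 and 5394 CPM in TBI against 5531, 17472 and 6858 in sham, with sham 2 far above the rest. Glutamatergic markers summed to 5121 to 6266 CPM in TBI against 5844 to 7156 in sham, and GABAergic markers to 558 to 632 against 606 to 731. TBI 3, with the most fibroblast, pericyte and endothelial marker RNA, was also highest in Pros1. TBI 2, with the most microglia and astrocyte marker RNA, was highest in Axl and Mertk. The part of these markers in the bulk differences of the TAM genes was not tested.

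The promoters of the 2 genes without overlap in bulk are shown because they moved together in these libraries. Each runs from 250 bases before to 50 bases after the transcription start in RefSeq's annotation of the GRCr8 build, is written 5′ to 3′ on the gene's own strand, and has in capitals every match, on either strand, to 4 motifs: the GC box GGGCGG, the AP-1 site TGANTCA, the interferon-gamma activated (GAS) site TTCNNNGAA and the CCAAT box. The Axl window is chr1:90423960-90424259 on the minus strand and the Pros1 window is chr11:13677049-13677348 on the plus strand.
Axl: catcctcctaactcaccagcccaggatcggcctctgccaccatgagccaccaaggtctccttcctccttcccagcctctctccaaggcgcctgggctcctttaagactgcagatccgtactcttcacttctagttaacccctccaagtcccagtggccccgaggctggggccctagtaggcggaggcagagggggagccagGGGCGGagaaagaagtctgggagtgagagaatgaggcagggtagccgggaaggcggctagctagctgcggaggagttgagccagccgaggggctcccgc
Pros1: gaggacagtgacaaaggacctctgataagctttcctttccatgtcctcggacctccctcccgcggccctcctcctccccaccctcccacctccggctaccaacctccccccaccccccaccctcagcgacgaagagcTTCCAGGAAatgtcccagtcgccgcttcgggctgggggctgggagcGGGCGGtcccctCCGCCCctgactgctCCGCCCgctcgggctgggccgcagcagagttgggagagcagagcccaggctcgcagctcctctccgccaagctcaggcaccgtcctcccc

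The Axl window held 1 GC box, and the Pros1 window held 3 GC boxes, 2 of them on the opposite strand, and 1 GAS site. A GC box stands in 33.1% of the 33469 rat promoters of the same length, a GAS site in 8.87%, an AP-1 site in 7.33% and a CCAAT box in 37.5%. Among the other members Mertk had 2 GC boxes, Gas6 had 3 and Tyro3 had 6 with 1 AP-1 site. All 5 windows were richer in G and C (63% in Axl, 67.3% in Mertk, 81.3% in Tyro3, 65.3% in Gas6 and 69% in Pros1) than the median promoter, at 51.7%. A match is a description of letters, and no binding was measured.

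The wider pathway was described with a list of 49 genes around the TAM receptors, of which 41 were in the bulk table. The list was chosen with earlier results of these data known, so its shares beside those of all genes are a description only. The part of the higher microglia and other cell type markers in these shares was not tested. Of these, 27 were higher and 14 lower in TBI, with a median log2 fold change of 0.09, and 0 passed the test at an FDR of 0.05. In 13 of the 41 every TBI library lay above every sham library, against 11.7% of all genes, and in 0 every TBI library lay below. An unadjusted p under 0.05 with a higher level in TBI was reached by 9 of the 41, against 8.2% of all genes, and by 0 with a lower level. DESeq2 called 3 of the 41, Abca1, Trem2 and Stab1, where it called 2.47% of all genes.

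The LXR and cholesterol efflux group, which handles the lipid load of engulfed cells, had all 5 members higher and 4 of 5 without overlap, with a median log2 fold change of 0.48, where 11.7% of all genes had every TBI library above. Abca1, the cholesterol exporter, had 79.6, 133 and 86.1 CPM in TBI 1, 2 and 3 against 30.4, 60.4 and 45.2 in sham 1, 2 and 3, a log2 fold change of 1.10 ± 0.29 (edgeR FDR = 0.265). Among 8 other phosphatidylserine receptors and bridges, 7 were higher and 4 had no overlap, beside the same 11.7% of all genes. Trem2, a lipid-sensing receptor of microglia, had 19.5, 49.0 and 22.7 CPM in TBI against 12.8, 10.6 and 11.5 in sham, a log2 fold change of 1.35 ± 0.34 (edgeR FDR = 0.242). Mfge8, a bridge to integrins, had a log2 fold change of 0.14 ± 0.23 and overlapped.

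Among the other ligands of Mertk, Lgals3 (galectin-3) had 3.48, 11.3 and 6.52 CPM in TBI against 0.495, 3.26 and 1.53 in sham, a log2 fold change of 1.97 ± 0.68 (edgeR FDR = 0.378). The groups that act on the TAM proteins themselves showed no separation: Ggcx, the carboxylase of the ligands, had a log2 fold change of 0.11 ± 0.16 and Vkorc1, which recycles vitamin K, one of 0.24 ± 0.14. The receptor-cleaving proteases Adam10 and Adam17 had log2 fold changes of 0.01 ± 0.18 and 0.19 ± 0.23. Of the downstream genes, the cytokine-signalling inhibitor Socs3 had 0.89 ± 0.54 and the engulfment adaptor Elmo1 −0.26 ± 0.25, both overlapping. Itgb5 was not analysed in bulk here. Protein cleavage and carboxylation are not read by RNA.

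**Figure D2:**
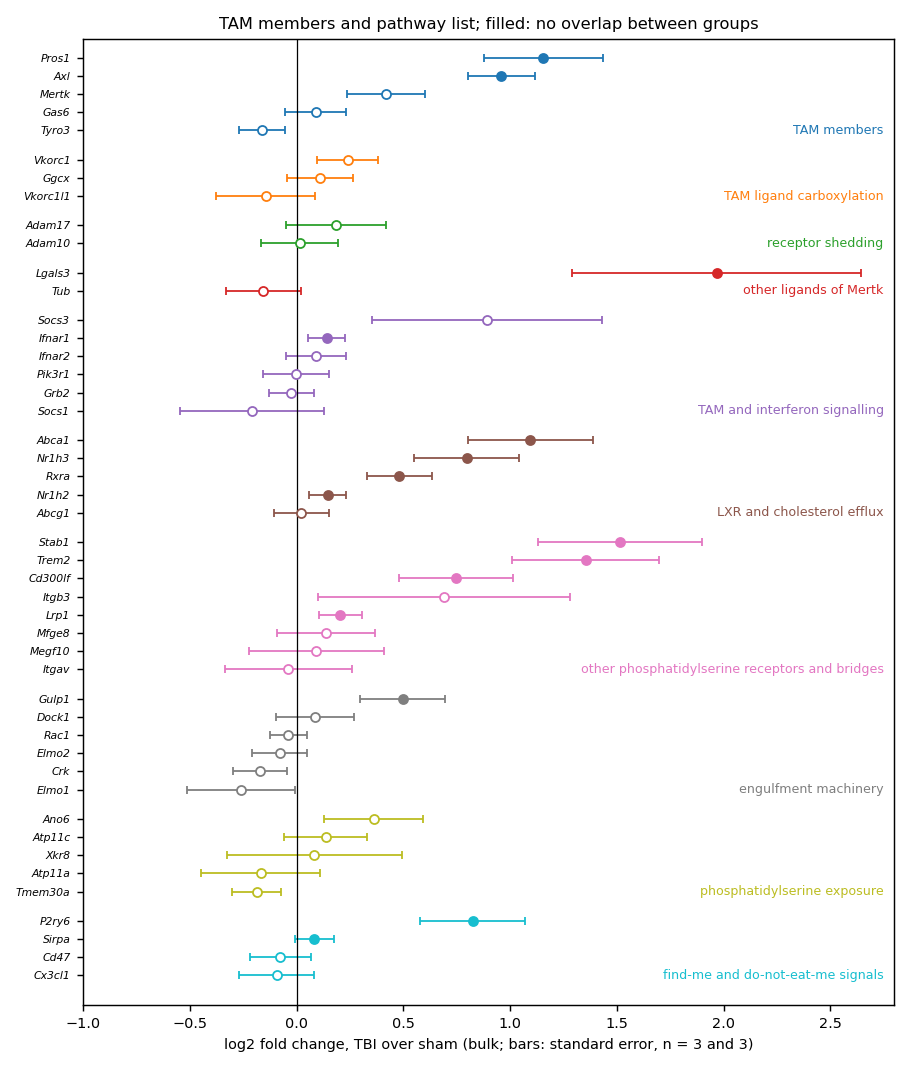
Log2 fold change of TBI over sham in bulk RNA (x axis) with its standard error for the 5 TAM genes and the 41 measured genes of the pathway list, grouped by role (n = 3 and 3). Filled points mark genes whose groups did not overlap: Axl and Pros1 among the TAM genes and 13 genes of the list, all to the right of 0.

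In the nuclei, each gene had its own distribution over cell classes. Levels are given as CPM, the gene's UMIs scaled to a common total of UMIs of the class in a rat, in TBI 1, TBI 2, the sham rat and the naïve rat. Since the classes were built from all genes, differences between classes are a description. Levels are compared within a gene only, and intervals cover counting error only.

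Mertk was highest in microglia, with a mean of 863 ± 372 CPM (SD over 4 rats), above astrocytes at 285 ± 97.0 with no overlap between the ranges over rats. Endothelial nuclei followed at 162 ± 65.7, oligodendrocyte precursors at 114 ± 32.8 and pericytes at 80.3 ± 40.0, with each range overlapping the next. Granule neurons, the principal neurons of the dentate gyrus, were lowest at 9.93 ± 9.11. Nuclei with a Mertk UMI made up 42.3% to 71.9% of microglia, whose median depth was 632 to 817 UMIs, and 0.0268% to 4.64% of granule neurons, whose median depth was 1739 to 2708. Astrocytes held 46.9% and microglia 28.9% of all Mertk UMIs on average over rats.

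Axl was highest in the pericyte class, at 119 ± 73.1 CPM, but on 19 UMIs from 139 nuclei. The range of that class overlapped that of astrocytes, at 77.5 ± 29.5 CPM from 1191 UMIs. The pericyte class also carried fibroblast markers, at 367, 373, 382 and 1189 CPM, beside 3636, 2963, 3904 and 3708 CPM of pericyte markers. Pericytes and fibroblasts were thus not separated there. Astrocytes carried 71.0% of all Axl UMIs on average (56.8% to 86.3% over rats). Endothelial nuclei had 47.6 ± 18.5 CPM and microglia 31.2 ± 53.1, with TBI 2 far above the other rats. Nuclei with an Axl UMI made up 16.4% to 23.6% of astrocytes and 0.0937% to 0.907% of granule neurons, at astrocyte median depths of 1326.5 to 2437 UMIs. Within pericytes the 2 TBI rats had 73.5 and 50.8 CPM and the controls 136 and 214, with 2, 3, 5 and 9 UMIs, too few to pass the filter on low counts.

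Tyro3 was highest in oligodendrocytes, the myelin-forming cells, at 81.4 ± 12.9 CPM, above the other glutamatergic neurons at 40.6 ± 8.76 with no overlap of the ranges. Granule neurons, at 11.0 ± 4.20 CPM, still held the largest share of its UMIs (32.1%), and they made up 47.4% to 66.2% of the nuclei of a rat. Microglia had 16.0, 0, 9.33 and 10.9 CPM.

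Gas6 was highest in endothelial nuclei at 116 ± 29.7 CPM, with no overlap with the next class, the other glutamatergic neurons at 78.4 ± 6.28. GABAergic neurons followed at 75.4 ± 4.34, oligodendrocyte precursors at 66.0 ± 12.3 and microglia at 60.1 ± 12.9, and these ranges overlapped. Oligodendrocytes were lowest at 21.5 ± 7.37. Granule neurons had 38.3 ± 2.90 CPM and held 44.7% of all Gas6 UMIs.

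Pros1 was highest in microglia at 106 ± 21.4 CPM, followed by pericytes at 58.5 ± 60.5 on 9 UMIs, endothelial nuclei at 49.8 ± 8.18 and astrocytes at 35.2 ± 6.52, with each range overlapping the next. As for Axl, the pericyte class held fibroblast marker RNA as well. Granule neurons had 2.38 ± 1.55 CPM. Astrocytes held 41.2% and microglia 24.5% of its UMIs. With nuclei of at least 1000 UMIs pericytes took the first place for Pros1, and the class with the highest mean stayed the same for the other 4 genes.

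**Figure D3:**
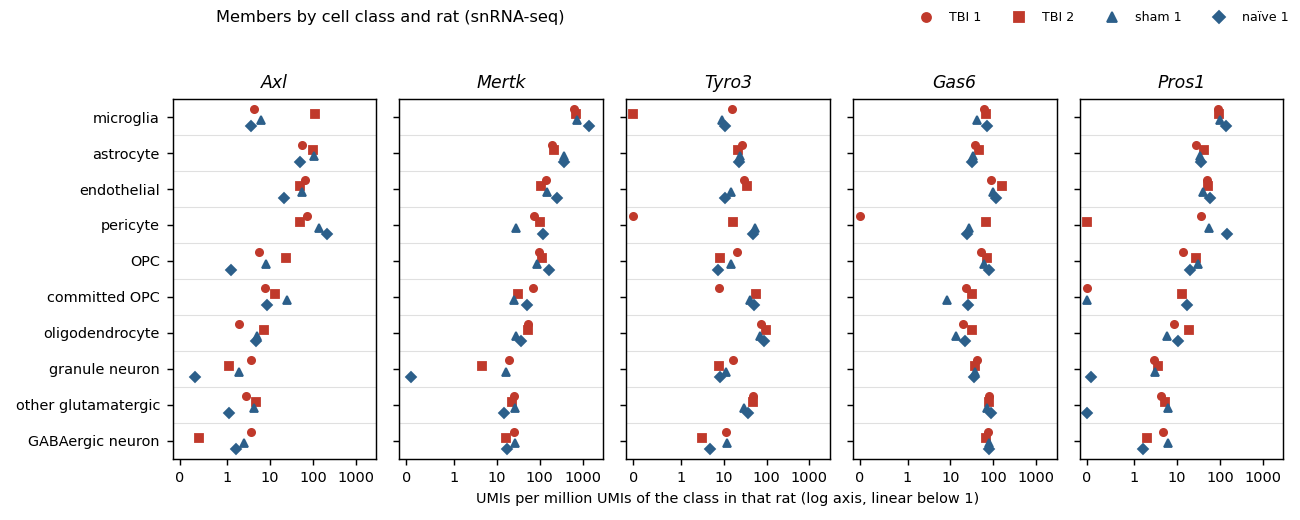
CPM (log axis, linear below 1) of the 5 genes in 10 cell classes, with 1 point per rat (TBI red, controls blue). Mertk peaks in microglia, Tyro3 in oligodendrocytes, Gas6 in endothelial nuclei and Pros1 in microglia, and the microglia row of Axl shows TBI 2 at 111 apart from the other 3 rats at 3.64 to 6.22.

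In microglia, Axl was high in 1 of the 2 injured rats and Mertk and Pros1 were lower in both injured rats than in both controls. Axl had 4, 138, 4 and 2 UMIs in TBI 1, TBI 2, the sham and the naïve rat, which is 4.28, 111, 6.22 and 3.64 CPM. The exact 95% Poisson interval of TBI 2 was 93.1 to 131 CPM, and TBI 1 lay among the controls. The log2 fold change of 3.53 ± 0.55 of both TBI rats over both controls thus came from TBI 2 alone, and was −0.22 without it. With every rat kept, DESeq2 gave 3.50 ± 1.14. Nuclei with an Axl UMI made up 0.541%, 9.27%, 0.610% and 0.461% of microglia, and 0.405%, 6.08%, 0.457% and 0.230% after every nucleus was thinned to 500 UMIs.

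The Axl UMIs of TBI 2 lay in 122 microglia nuclei, 103 of them in cluster 6, the larger of the 2 microglia clusters. There Axl had 8.64, 178, 10.3 and 3.56 CPM, and in cluster 18 it had 0, 34.3, 0 and 3.73. The 122 nuclei had a median of 639 UMIs against 631 for the TBI 2 microglia without an Axl UMI. A UMI of an astrocyte marker was found in 68.9% of them against 72.8%, a UMI of a border macrophage or monocyte marker in 3.28% against 2.43%, and a Mertk UMI in 43.4% against 42.2%. Their microglia markers summed to 4267 CPM against 3581. In depth, astrocyte markers and Mertk these nuclei were thus close to the remaining microglia of that rat.

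Astrocyte marker RNA summed to 1585, 1624, 1664 and 1525 CPM in the microglia of the 4 rats, with TBI 2 within the range of the others, and border macrophage or monocyte markers summed to 9.62, 54.6, 65.3 and 29.2 CPM. TBI 2 also had the largest share of stored zeros and the lowest median depth of the 4 libraries. Outside microglia, Axl was also highest in TBI 2 in oligodendrocyte precursors, at 5.52, 23.4, 7.98 and 1.24 CPM, in oligodendrocytes, at 1.88, 7.29, 4.85 and 4.59 CPM, and in other glutamatergic neurons, at 2.67, 4.60, 4.25 and 1.12 CPM, where TBI 2 had 14 UMIs. In the other 6 classes another rat was highest. The part of these library properties in the Axl level of TBI 2 was not tested.

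Mertk in microglia had 623, 685, 728 and 1418 CPM. The injured rats lay below both controls, but the intervals of TBI 2 (640 to 733) and of the sham rat (663 to 797) overlapped, and the naïve rat stood apart from the other 3. The log2 fold change was −0.75 ± 0.35, and −0.20 without the naïve rat. In 11.9% of the 9284 genes tested in microglia both TBI rats lay below both controls, and in 18.4% they lay above. Within cluster 6 Mertk had 1026, 1067, 951 and 2346 CPM, where the groups overlapped, and within cluster 18 it had 229, 252, 386 and 444, where TBI was lower. Cluster 18 was less distinct: its microglia marker score (mean log2 ratio to other clusters) was 1.64 against 4.28. Its granule marker score (against the lower quartile of clusters) was 1.26 against 0.764, and its median depth 2131 against 681 UMIs. The part of neuronal RNA there was not tested. The 13 microglia markers of the class summed to 2831, 3640, 2951 and 6676 CPM, again highest in the naïve rat, and as a percentage of that sum Mertk was 22.0, 18.8, 24.7 and 21.2, with overlapping groups.

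Pros1 in microglia had 88.8, 95.6, 101 and 137 CPM, a log2 fold change of −0.40 ± 0.25, and the groups overlapped in each microglia cluster taken alone. The bulk level of Pros1, by contrast, was higher in every TBI library. Gas6 had 59.9, 67.5, 42.0 and 71.1 CPM with a log2 fold change of 0.15 ± 0.33. Axl, on 148 UMIs, and Tyro3, on 27 UMIs, did not pass the filter on low counts. Both are thus not among the genes tested in microglia, and the fold change of Axl came from the unfiltered fit. Across all genes tested in microglia edgeR called 0 at an FDR of 0.05, with 216 (2.33%) at an unadjusted p under 0.05, and DESeq2 called 0. Microglia made up 5.92%, 9.14%, 3.87% and 3.85% of the nuclei of the 4 rats.

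In astrocytes, Mertk was lower and Gas6 higher in both injured rats than in both controls, whereas Axl, Tyro3 and Pros1 overlapped. Mertk had 190, 213, 376 and 359 CPM, from 769, 638, 1457 and 1893 UMIs. The log2 fold change was −0.94 ± 0.14, a fold of 0.523, and it ranged from −1.03 to −0.87 when each rat was left out. Both TBI rats lay below both controls in 17.8% of the 12518 genes tested in astrocytes and above in 26.3%.

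The difference in Mertk was present in both astrocyte clusters, at 169, 184, 344 and 336 CPM in cluster 3 and at 213, 238, 447 and 372 CPM in cluster 10, which has Gfap among its leading genes. Shares of nuclei with a Mertk UMI were 41.8%, 39.4%, 43.0% and 66.2% at median depths of 1965.5, 2037, 1326.5 and 2437 UMIs, and after thinning to 500 UMIs they were 11.5%, 11.9%, 16.5% and 19.8%. The 10 astrocyte markers summed to 4780, 6964, 7345 and 9071 CPM in the class, lower in TBI as well, and Mertk as a percentage of that sum was 3.97, 3.05, 5.12 and 3.96, so on that scale TBI 1 and the naïve rat had nearly the same value and the groups overlapped. The part of the overall marker level in the Mertk difference was not tested.

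Gas6 in astrocytes had 37.0, 46.0, 34.4 and 32.7 CPM, a log2 fold change of 0.24 ± 0.21, and 0.07 without TBI 2. Within cluster 3 it had 32.7, 42.5, 35.8 and 31.3 CPM and the groups overlapped. Within cluster 10 it had 41.8, 49.0, 31.1 and 33.4 CPM, higher in TBI. Glutamatergic neuron markers in the astrocyte class summed to 1981, 2261, 1308 and 1314 CPM, also higher in both TBI rats, while GABAergic markers overlapped. The part of neuronal RNA in the Gas6 difference was not tested. Axl had 55.0, 100, 105 and 49.2 CPM: TBI 2 and the sham rat were high and TBI 1 and the naïve rat low, and the log2 fold change was −0.06 ± 0.40. Pros1 had 27.4, 43.0, 33.6 and 36.8 CPM and Tyro3 26.6, 22.0, 24.3 and 23.0 CPM. In astrocytes edgeR called 0 genes at an FDR of 0.05, with 1575 (12.6%) at an unadjusted p under 0.05, and DESeq2 called 249 of 6401 (3.89%).

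**Figure D4:**
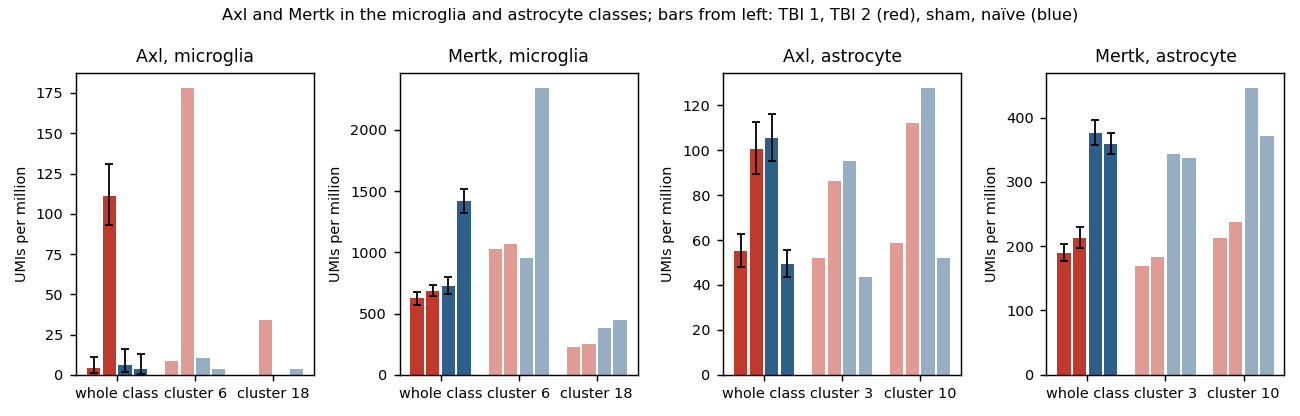
Axl and Mertk in CPM in microglia and astrocytes and in each of their clusters, with bars for TBI 1, TBI 2 (red), sham and naïve (blue). Lines on the whole-class bars are exact 95% Poisson intervals. Axl in microglia stands out in TBI 2 alone, at 111, and Mertk in astrocytes is at most 238 in both TBI rats and at least 336 in both controls, in the class and in each cluster.

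In the other 8 classes, which played no role in the choice of the genes, TBI was tested against control. Of 40 pairs of gene and class, 26 passed the filter on low counts and 0 passed the test at an FDR of 0.05. The smallest adjusted p was 0.997, and 0 of the 26 had an unadjusted p under 0.05 (edgeR quasi-likelihood test, 2 against 2 rats). The background was likewise 0% of genes called in each of these classes, and DESeq2 called 0 of the pairs. An unadjusted p under 0.05 was reached by 4.12% of endothelial genes, 3.1% in oligodendrocyte precursors, 2.03% in oligodendrocytes, 1.38% in GABAergic, 1.23% in granule and 1.08% in other glutamatergic neurons.

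Mertk came nearest in oligodendrocytes, at 54.6, 52.5, 28.1 and 36.7 CPM, where both TBI rats lay above both controls with a log2 fold change of 0.62 ± 0.31 (edgeR, unadjusted p = 0.0768). In 22.9% of the genes tested in oligodendrocytes both TBI rats lay above. Microglia markers summed to 133, 225, 68.9 and 115 CPM in the oligodendrocyte class, also higher in both TBI rats. Mertk was highest in microglia, and the part of such RNA in this difference was not tested. Nuclei with a Mertk UMI made up 3.04% to 6.50% of oligodendrocytes, within reach of the upper share in granule neurons. Mertk in endothelial nuclei ran the other way, at 143, 104, 145 and 257 CPM with a log2 fold change of −0.68 ± 0.37 (edgeR, unadjusted p = 0.0803), and both TBI rats lay below in 14.9% of endothelial genes. TBI 1 and the sham rat were nearly equal there. Astrocyte markers summed to 2426, 2283, 2765 and 5256 CPM in the endothelial class and ranked the rats alike, and their part was not tested.

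Tyro3 in the other glutamatergic neurons had 47.2, 48.0, 29.5 and 37.7 CPM, a log2 fold change of 0.45 ± 0.25 (edgeR, unadjusted p = 0.117), in a class where 17.2% of genes were higher in both TBI rats. Gas6 in GABAergic neurons had 76.1, 69.0, 78.2 and 78.2 CPM, a log2 fold change of −0.18 ± 0.17, where 9.1% of genes lay below in both. These 4 pairs were the only ones of the 26 without overlap. Among all genes tested, both TBI rats lay above both controls in 17% (endothelial), 19.3% (oligodendrocyte precursor), 19.6% (GABAergic) and 20.3% (granule) of genes, and below in 13.2% (oligodendrocyte precursor), 9.51% (other glutamatergic), 8.13% (granule) and 7.86% (oligodendrocyte). In granule neurons Mertk had 18.8, 4.38, 16.4 and 0.0927 CPM, so the naïve rat, with 2 UMIs in 7471 nuclei, and TBI 2 were low where TBI 1 and the sham rat were not. Microglia markers in the granule class ranked the rats alike, at 46.9, 14.5, 33.9 and 3.24 CPM, and their part was not tested.

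In nuclei edgeR called 0 genes of the pathway list at an FDR of 0.05 in each of the 10 classes, and DESeq2 called 2, Gulp1 and Dock1, both in astrocytes. DESeq2 tested 24 of the list in astrocytes, and it called 3.89% of all genes there. In microglia 34 of the 49 genes were tested, 14 were higher and 20 lower, with a median log2 fold change of −0.04 against −0.00 over all genes, and 3 had an unadjusted p under 0.05, where 2.33% of all microglia genes did. Trem2 had 46.0, 101, 73.1 and 184 CPM in microglia, with a log2 fold change of −0.81 ± 0.49 and groups that overlapped. The naïve rat was highest, as in the summed microglia markers, whose part was not tested. In bulk Trem2 was higher in every TBI library.

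In astrocytes 36 of the list were tested, with 18 higher and 18 lower and a median log2 fold change of −0.00 against −0.02 over all genes. An unadjusted p under 0.05 was reached by 10, of which 3 were higher and 7 lower in TBI, where 12.6% of all astrocyte genes did. Mfge8, at 79.4, 75.7, 106 and 134 CPM, was lower in both TBI rats with a log2 fold change of −0.70 ± 0.18 (edgeR FDR = 0.217), and Adam17, at 21.2, 23.0, 34.4 and 35.1 CPM, had −0.72 ± 0.22 (edgeR FDR = 0.269). Abca1 had 214, 312, 318 and 269 CPM and overlapped. Gulp1, Dock1, Megf10 and Xkr8 were chosen after their values were seen. Gulp1, an adaptor of phagocytic receptors, had 60.4, 67.0, 120 and 122 CPM, a log2 fold change of −0.997 ± 0.155 (edgeR FDR = 0.190, DESeq2 FDR = 0.00446). In bulk Gulp1 ran the other way, at 5.94, 7.48 and 8.55 CPM in TBI against 5.45, 5.32 and 4.42 in sham, without overlap and with a log2 fold change of 0.50 ± 0.20 (edgeR FDR = 0.484). Dock1, a partner of Elmo1 in engulfment, had 262, 324, 479 and 416 CPM in astrocytes, a log2 fold change of −0.68 ± 0.16 (edgeR FDR = 0.204, DESeq2 FDR = 0.0205), and overlapped between the groups in bulk. Megf10, a phagocytic receptor of astrocytes, had 127, 163, 252 and 187 CPM and −0.66 ± 0.20 (edgeR FDR = 0.255). Xkr8, a scramblase that exposes phosphatidylserine, ran the other way, at 68.8, 46.0, 24.5 and 29.1 CPM and 1.04 ± 0.26 (edgeR FDR = 0.209). The summed astrocyte markers of the class, at 4780, 6964, 7345 and 9071 CPM, were also lower in both TBI rats. Their part in the differences of the lower list genes was not tested.

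Genes with the most similar pattern were found by Pearson's r. Over the 6 bulk libraries, Axl was closest to Tulp3 (r = 0.998), Sp100 (0.998) and Clic1 (0.997), Pros1 to Ripk1 (0.998), Ptbp1 (0.995) and Fxyd5 (0.994), and Mertk to Ttf2 (0.989), Mybbp1a (0.988) and Gcm2 (0.986). Tyro3 was closest to Dazap1 (0.997), Ust (0.990) and Pomk (0.984), and Gas6 to Tcta (0.982), Sae1 (0.976) and Cyb5r1 (0.976). With 6 points and 14166 genes, such values are high by construction.

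Over the 40 sums of class and rat in the nuclei, which share libraries and depth within a rat, Mertk was closest to Bcar3 (r = 0.879), Lyn (0.876) and Lrp4 (0.851), and Pros1 to Idh2 (0.824), Nfatc1 (0.806) and Lcp2 (0.804). Axl was closest to Slc7a11 (0.829), Tmem51 (0.815) and Cyp4f6 (0.812), and Gas6 to Luzp1 (0.829), Rnf41 (0.814) and AABR07021704.1 (0.809). Tyro3 was closest to Eml1 (0.750), Plekhg1 (0.703) and AABR07031445.1 (0.696). No gene occurred in both sets.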

How the data were processed

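The authors mapped bulk reads with kallisto and deposited estimated counts per transcript and log2 CPM for 14166 genes after their filters. For the fits, gene counts were worked back from the deposited log2 CPM and rounded, since 76.5% came out whole within 0.01. Gene identifiers were matched to symbols through RefSeq GRCr8 (13778 of 14166 matched). For nuclei the authors deposited UMI counts from Cell Ranger on Rnor_6.0, with introns included. The origin of the stored zeros was not found in the methods or labels, and no step against doublets was applied.

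Nuclei were kept with at least 500 UMIs, 300 genes, a log10 genes per UMI of 0.8, at most 5% mitochondrial and 2% ribosomal UMIs. They were clustered as in the study with Seurat 5.3.0 (2000 variable genes, 25 components, CCA integration, resolution 0.6), and a cluster took a class name where at least 3 of its markers led and its mean marker score led the next class by 0.5 (neurons with vesicular glutamate transporters by their own markers). UMIs were summed per rat and class (classes with at least 20 nuclei in every rat), so rats were the replicates. TBI was compared with sham, or with control in nuclei, by edgeR 4.0.16 (TMM, quasi-likelihood, Benjamini-Hochberg over all genes, filterByExpr in nuclei) in R 4.3.3, and members under that filter took their fold change from the unfiltered fit. Standard errors were derived from the fold change and its test statistic. Alternatives were DESeq2 1.42.0, limma 3.58.1 on log2 CPM, other filters, a replicate block, surgery period, marker gates, clusters without integration and leaving out each rat. The tests were checked on simulated data with 200 genes changed 4-fold: edgeR recovered 70.5% of them in microglia and 79.5% in astrocytes. In the other 8 classes it recovered 45% (other glutamatergic neurons) to 83.5% (committed oligodendrocyte precursors), with 45.5% in granule neurons. It also called 35 unchanged genes beside 159 changed ones in astrocytes, and 10 beside 141 in microglia.

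The 5 genes, the pathway list and the markers were chosen with earlier results of these data known. Named were the 5 genes, 12 genes of the pathway list chosen by their role (1 of them is not reported here), any list gene called, 4 list genes in astrocytes chosen after their values were seen, and the 3 genes closest to each member by Pearson's r (log2(CPM + 1), at least 200 UMIs in nuclei). Plots used matplotlib 3.10.9.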

Additional observations from a re-analysis of the deposited data

Results flagged for a closer look

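Mertk ran in opposite directions across cell classes, and none of these differences was tested. Both TBI rats lay above both controls in oligodendrocytes and below both in astrocytes, endothelial nuclei and microglia. Microglia marker RNA within the oligodendrocyte class was also higher in both TBI rats, and astrocyte marker RNA within the endothelial class was also lower in both. The log2 fold change in oligodendrocytes minus that in astrocytes was 1.56, minus that in endothelial nuclei 1.3 and minus that in microglia 1.37. The 4 rats are shared by all classes.

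Gas6 was higher in both TBI rats in astrocytes and lower in both in GABAergic neurons, with a difference of log2 fold changes of 0.42, which was not tested either. In the larger astrocyte cluster, cluster 3, the Gas6 groups overlapped.

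The nuclei of the 3 unnamed clusters enter no comparison of cell classes. There Mertk had 41.6, 49.9, 36.6 and 28.0 CPM in TBI 1, TBI 2, the sham and the naïve rat, and the log2 ratio of the TBI to the control mean was 0.50. Pros1 had 6.84, 9.28, 3.05 and 6.46 CPM on 28 UMIs, with a log2 ratio of 0.76. The make-up of these nuclei differed between rats, since cluster 16 gave 320, 29, 404 and 12 of them. Within cluster 8, which gave 416, 740, 562 and 269, Mertk had 54.6, 46.3, 41.0 and 25.6 CPM, and within cluster 16 it had 32.6, 31.9, 34.5 and 0, on 32, 2, 41 and 0 UMIs.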

How the results depend on the processing

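With 3 against 3 bulk rats and 2 against 2 nucleus rats, single rats decide several values, and rare classes and Axl in microglia rest on few UMIs. Set against the alternatives, counts and summaries kept their value within the set limits 56 times and moved 11 times. Fold changes of members stayed within the spread between rats 161 times and moved 12 times, and the causes were not tested.

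In bulk, DESeq2 called 349 genes and 3 of the pathway list, against 0 and 0 by edgeR. In astrocyte nuclei DESeq2 called 249 of 6401 genes and 2 of 24 of the list, against 0 and 0. Sham and TBI libraries shared only replicate numbers, with correlations of same-numbered deviations of 0.35, 0.17 and −0.03, and sham 3 and TBI 3 did not correlate best with their own number. A replicate block gave 61 genes and 2 of the list (Lgals3 and Abca1). Leaving out each replicate gave 0 to 1 genes and 0 of the list, the 1 gene, without TBI 3, being one with no symbol. The median of the 5 members ranged from 0.24 to 0.60 when each rat was left out and was 0.28 with surgery period as a covariate. Axl ranged from 0.85 to 1.10 and Pros1 from 0.95 to 1.37. Transcript sums per gene were not run.

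In microglia, members without overlap numbered 2. They numbered 1 with marker gates, 0 in cluster 6 alone (an alternative added after seeing the data, as were the other single clusters) and 3 to 4 when each rat was left out. Leaving out a rat sets 1 rat against 2, so more genes separate by construction: the share of all microglia genes without overlap was 30.3% with 4 rats and 56.3% to 77.1% with 3, and the rise says nothing about the members. Axl was −0.22 without TBI 2 and 3.19 to 4.38 without any other rat, and Mertk was −0.20 without the naïve rat. In astrocytes the count was 2, and 3 to 4 when each rat was left out, where the share of all genes went from 44% to between 69.3% and 73.3%. In the other classes 0 members were called under every alternative run.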

Other observations

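Receptor and ligand RNA occurred in the same nucleus at low shares. Nuclei with a UMI of a TAM receptor and a UMI of a TAM ligand made up 7.03%, 6.99%, 5.95% and 15.9% of microglia in TBI 1, TBI 2, the sham and the naïve rat, and 12.8%, 14.5%, 7.36% and 20.8% of astrocytes. Axl and Mertk were found together in 2, 53, 1 and 2 microglia nuclei and in 94, 112, 170 and 163 astrocyte nuclei. None of the 5 genes had a UMI in 43.2%, 45.5%, 45.9% and 22.4% of microglia. Median depths were 817, 632, 752 and 768.5 UMIs in microglia and 1965.5, 2037, 1326.5 and 2437 in astrocytes, and these shares were not thinned to a common depth.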
